A study of Mus musculus with 6 samples.

Results

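Mir194, Mir546, Mir6236 and Mir6240 are 4 names among the mouse genes that the GENCODE M21 annotation calls microRNA genes. They stand for 5 of its 2202 annotated hairpins, since Mir194 has the copies Mir194-1 and Mir194-2. They were chosen by the measured ratio of their read shares with and without NaIO4, which was above 1 in at least 1 of the WT and Hen1 KO pairs of libraries. For Mir546 and Mir6240 it was well below 1 in the other pair. Since these ratios chose the names, they are given as a description and not as a finding. Reads of 18 to 35 nt that matched one of the hairpins exactly and in the sense were summed, which gave 1400 reads for Mir194, 1904 for Mir546, 2506 for Mir6236 and 982 for Mir6240 over 6 libraries. The reads of each name were set against the forms of microRNAs, of piRNAs and of fragments of longer RNAs such as rRNA.

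The cells were spermatogonial stem cells (SSC), from which sperm production in the testis is renewed, cultured with mouse embryonic fibroblasts as feeders. Per the labels they came from a 15-day-old male, an F1 of C57BL/6 and DBA2 that carries an actin-EGFP transgene, while the strain field of the labels names C57BL/6 only. The knockouts were made with Cas9 and guide RNAs and are each a picked colony, that is, 1 clone. The 6 libraries, 1 per group, were a MILI immunoprecipitate (MILI IP, labelled Mili-ip), an untreated mili knock-out (Mili KO), a hen1 knock-out treated with NaIO4 (Hen1 KO NaIO4), an untreated hen1 knock-out (Hen1 KO), wild type treated with NaIO4 (WT NaIO4) and untreated wild type (WT). For the treatment, 4 µg of total RNA was kept with 2 µl of 200 mM NaIO4 for 1 h. Spike-ins were added to the libraries other than the immunoprecipitate, but the sources used here do not give their sequences.

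Dicer cuts microRNAs out of short hairpins as duplexes of about the same length with a fixed 5′ end, because the bases just behind that end, the seed, choose the targets. piRNAs are longer, usually begin with U, are made from long single-stranded precursors such as the 3′ ends of mRNAs, and are bound by Piwi proteins, of which MILI (gene Piwil2) is one. HEN1 (gene Henmt1) puts a 2′-O-methyl group on the last ribose of piRNAs. NaIO4 oxidises a last ribose with free 2′ and 3′ hydroxyls, so that mammalian microRNAs are lost from the library and methylated piRNAs stay.

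The RefSeq mature microRNAs of these names (GRCm38.p6) are shown because the reads are set against them below. The seed, bases 2 to 8, is in capitals, and no seed is shared between names.
mmu-miR-194-5p: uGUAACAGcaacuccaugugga
mmu-miR-194-1-3p: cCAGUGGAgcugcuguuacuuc
mmu-miR-194-2-3p: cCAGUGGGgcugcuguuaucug
mmu-miR-546: aUGGUGGCacggaguc
mmu-miR-6236: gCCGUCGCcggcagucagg
mmu-miR-6240: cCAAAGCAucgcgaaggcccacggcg

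The most read sequences in the files, written as DNA, were the following. For Mir194 they are the forms with 1 shared 5′ end, and the capitals mark the bases that lie beyond the end of the 18-nt form.
Mir194, 18 nt: tgtaacagcaactccatg
Mir194, 21 nt: tgtaacagcaactccatgTGG
Mir194, 22 nt: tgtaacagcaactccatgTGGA
Mir194, 23 nt: tgtaacagcaactccatgTGGAA
For Mir546 the capital marks the first base, which was T in each of the 5 most read sequences.
Mir546, from hairpin position 51, 26 nt: Tagatgttgtctcttgctatccctgt
Mir546, from position 17, 28 nt: Taaacaggatctatcatggtggcacgga
Mir546, from position 51, 27 nt: Tagatgttgtctcttgctatccctgtg
Mir546, from position 92, 25 nt: Tagaagcaaagtgatactggggagg
Mir546, from position 17, 29 nt: Taaacaggatctatcatggtggcacggag
For Mir6236 and Mir6240 the 2 most read of each are shown with no base marked. The first Mir6236 sequence held 3.07% of its reads. The 2 of Mir6240 held 13.1% and 6.21%, and both lie in the first of its 2 windows, described below.
Mir6236, from position 3, 21 nt: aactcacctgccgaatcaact
Mir6236, from position 30, 21 nt: gaaaatggatggcgctggagc
Mir6240, from position 28, 18 nt: aaagcatcgcgaaggccc
Mir6240, from position 27, 19 nt: caaagcatcgcgaaggccc

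The reads of 18 to 35 nt numbered 25240941 in the MILI IP, 4808088 in Mili KO, 2604390 in Hen1 KO NaIO4, 11702714 in Hen1 KO, 10282416 in WT NaIO4 and 7322408 in WT. Levels are RPM, that is, scaled to 1000000 of these reads. With 1 library per group there is no replicate check, no test and no p-value, and each comparison is between libraries. All intervals are at 95%. Those of shares and levels are exact (Clopper-Pearson), and those of ratios were taken from both counts after a log transform. The labels name no molecular identifiers, so PCR copies of a molecule may be counted as well, and the intervals hold counting error and no other error. Germ cell microRNAs (the Mir741, Mir871 and Mir470 group, 5 annotated genes, all with reads in all 6 libraries) stood at 81699 RPM in WT, and 6 fibroblast microRNAs, the feeders' markers, at 1512 RPM. In bulk RNA fewer cells of a type and less RNA per cell cannot be told apart. The knockouts and the immunoprecipitate share 1 WT library as their reference.

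The 4 names had different patterns over the libraries, as the plot of levels shows. All other annotated microRNA genes give the background. Their reads together were 13.2-fold lower (13.1 to 13.2) in WT NaIO4 than in WT, and 2.89-fold lower (2.87 to 2.91) in Hen1 KO NaIO4 than in Hen1 KO. As ratios these are 0.0760 and 0.346. Among Dicer products, the let-7 family was 15.0-fold lower in WT NaIO4 than in WT and Mir21a 7.22-fold lower. Of 669 arms (sides of a hairpin) with at least 200 reads in the 2 WT libraries together, 6 were at least 2-fold higher in WT NaIO4 (0.897%), and of 641 arms 88 were at least 2-fold higher in Hen1 KO NaIO4 (13.7%), with 0.5 read added to each count. Scaled per microRNA read instead, 386 (57.7%) and 172 (26.8%) were. A read that matched several genes counted for each, so entries with shared sequences repeat in the arm counts and ranks here and below. The Mir194 5′ arm was the first of both lists, at 3.18 and 14.4. The Mir546 3′ arm was the sixth in WT at 2.03, just inside the limit together with Mir692-2 and Mir692-3 at 2.14. Just outside it were Gm24098 and Gm25381 at 2.00 and Gm27288 at 1.96. The Mir6236 5′ arm was number 230 in WT at 0.977 and number 4 in Hen1 KO at 5.35, and the Mir6240 3′ arm was number 250 in WT at 0.795 and number 66 in Hen1 KO at 3.31. These ratios chose the names, so nothing is read from the counts.

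**Figure D1:**
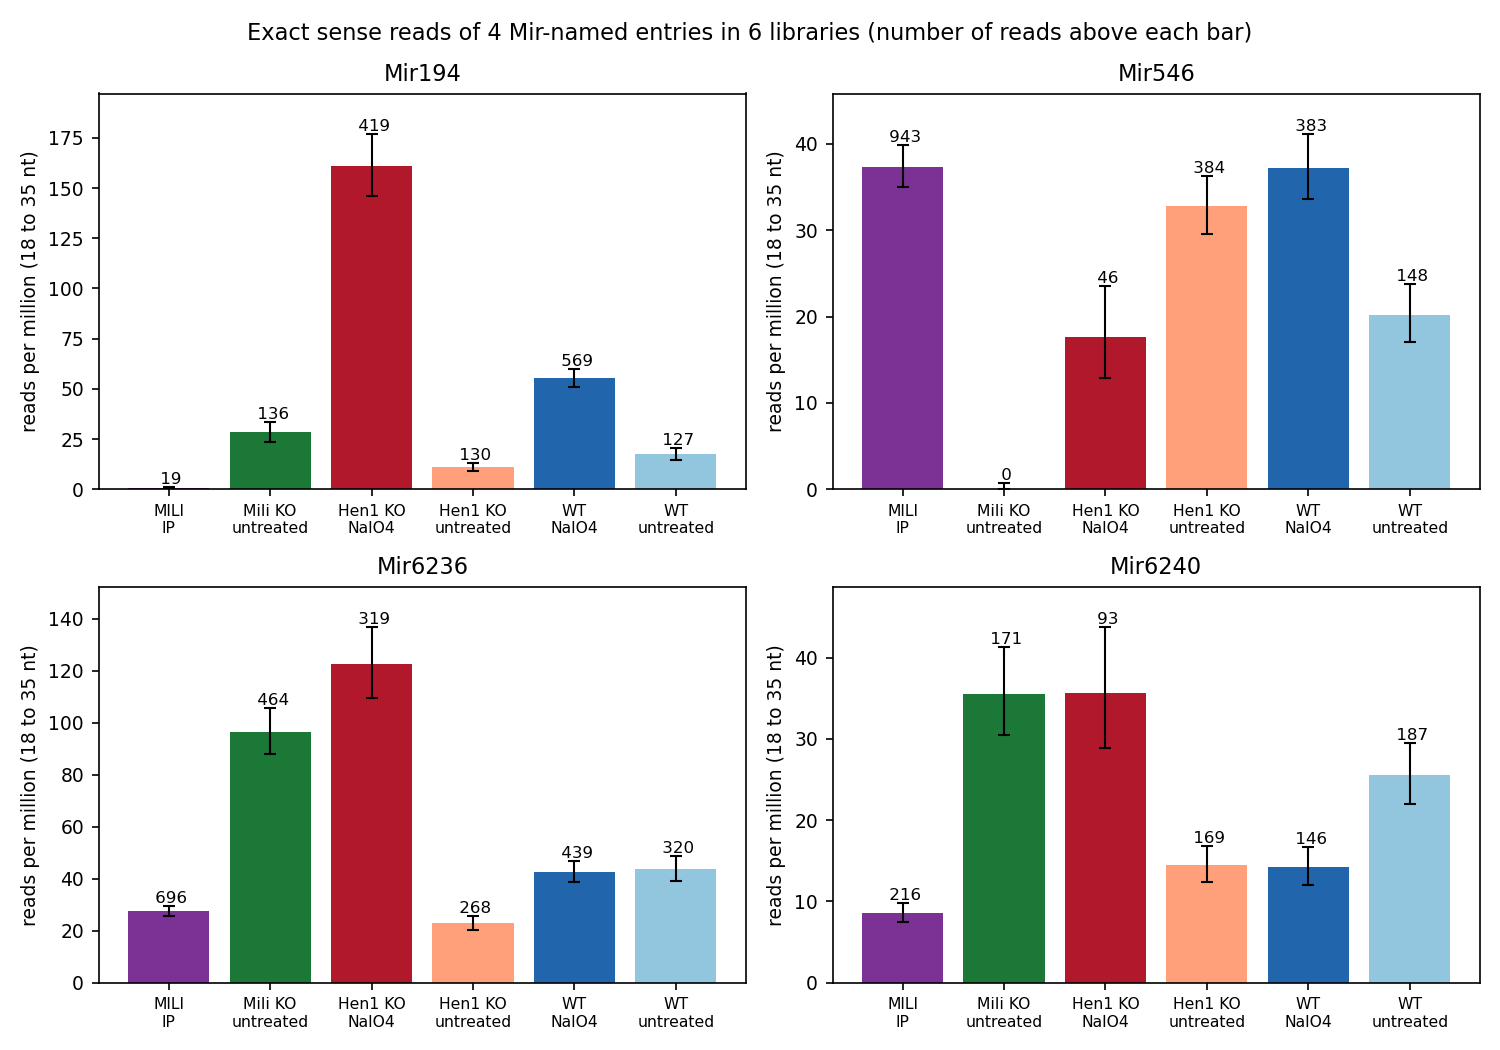
RPM of each name in the 6 libraries (y axis, linear from 0), with exact 95% intervals as bars and the number of reads above them. Mir194 is highest in Hen1 KO NaIO4 with 419 reads, Mir546 has 0 reads in Mili KO, and Mir6236 and Mir6240 are high in Mili KO and Hen1 KO NaIO4.

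**Figure D2:**
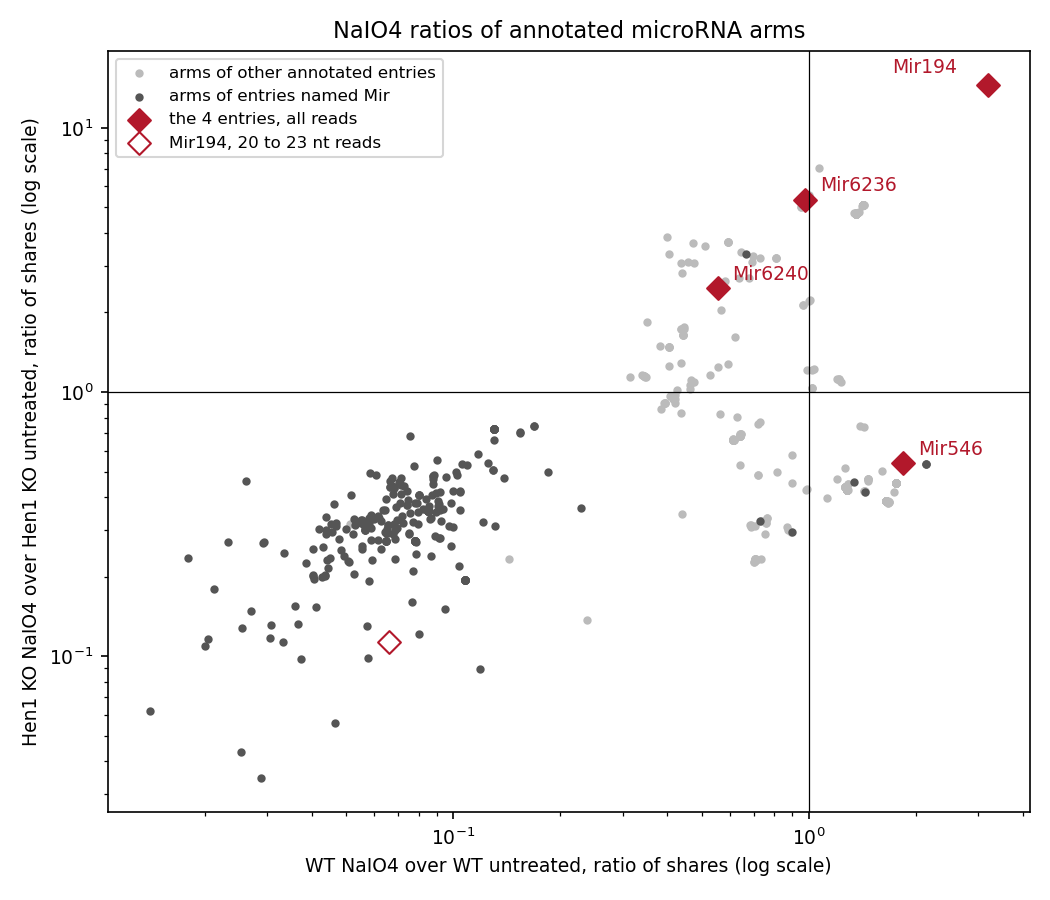
Ratio of shares in WT NaIO4 over WT (x axis, log scale) against Hen1 KO NaIO4 over Hen1 KO (y axis, log scale) for each annotated microRNA arm with at least 200 reads in both pairs (Mir5099 left out), with the 4 names as red diamonds. The open diamond holds only the Mir194 reads of 20 to 23 nt and lies among the other Mir-named arms, while the diamond of all Mir194 reads is at 3.19 and 14.5.

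Mir194 encodes miR-194, known from the epithelium of gut, liver and kidney, and lies in 2 clusters beside Mir215 (copy 1) and Mir192 (copy 2). In GRCm38, Mir194-1 is at chr1:185313319-185313385 and Mir194-2 at chr19:6264643-6264728, both on the + strand. Its total level was 0.753 RPM in the MILI IP, 28.3 in Mili KO, 161 in Hen1 KO NaIO4, 11.1 in Hen1 KO, 55.3 in WT NaIO4 and 17.3 in WT. The 2 treated libraries were thus above all the untreated ones, and the ratio was 3.19 (2.63 to 3.87) in WT and 14.5 (11.9 to 17.6) in Hen1 KO.

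The higher share with NaIO4 lay in the 18-nt form. That form had 2 reads in the MILI IP, 4 in Mili KO, 411 in Hen1 KO NaIO4, 11 in Hen1 KO, 555 in WT NaIO4 and 7 in WT. Its share was 56.5-fold higher (26.8 to 119) in WT NaIO4 than in WT, and 168-fold higher (92.3 to 306) in Hen1 KO NaIO4 than in Hen1 KO. The forms of 20 to 23 nt, which have the length of a microRNA, were lower with NaIO4. They had 17 reads in the MILI IP, 132 in Mili KO, 3 in Hen1 KO NaIO4, 119 in Hen1 KO, 11 in WT NaIO4 and 119 in WT. They were 15.2-fold lower (8.19 to 28.2) in WT NaIO4 than in WT and 8.83-fold lower (2.81 to 27.8) in Hen1 KO NaIO4 than in Hen1 KO. The exact mature miR-194-5p of 22 nt had 3 reads in Hen1 KO NaIO4 and 49 in Hen1 KO, and 3 in WT NaIO4 and 42 in WT.

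Reads of 18 to 19 nt made up 99.3% (97.9 to 99.9) of Mir194 in Hen1 KO NaIO4 and 8.46% in Hen1 KO, and 98.1% in WT NaIO4 and 6.30% in WT. Over the other microRNA genes together, that share was 5.41% in Hen1 KO NaIO4 and 1.05% in Hen1 KO, and 5.39% in WT NaIO4 and 1.05% in WT. Among single arms with at least 200 reads it had a median of 5.48% over 450 arms in WT NaIO4 and reached 85.9%, below that of Mir194. Without NaIO4 the highest arm reached 99.1% in WT (512 arms, median 3.48%) and 91.9% in the MILI IP (451 arms). A share as high as that of Mir194 in WT NaIO4 was thus also seen in another arm in WT.

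**Figure D3:**
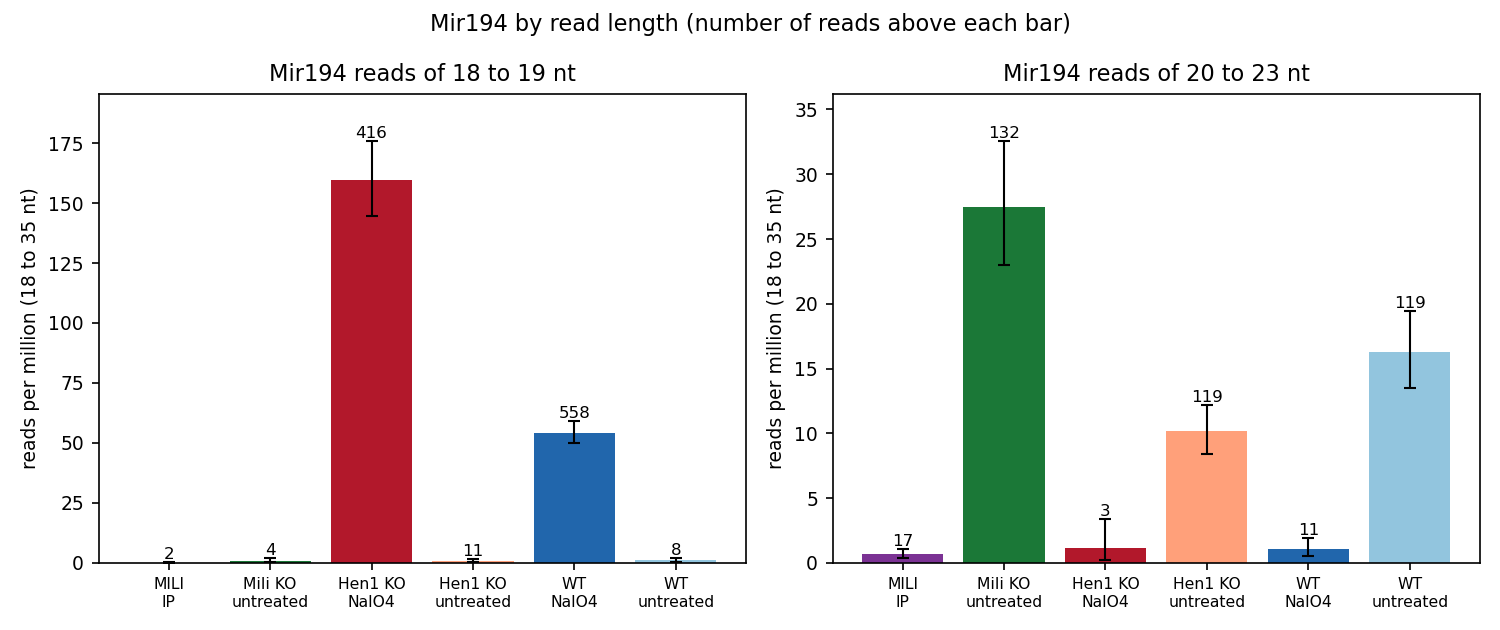
Mir194 RPM (y axes, linear from 0, different scales) for reads of 18 to 19 nt (left) and 20 to 23 nt (right) in the 6 libraries, with exact 95% intervals and the number of reads above the bars. The short reads stand in the 2 NaIO4 libraries, with 416 and 558 reads, and the longer ones in the 3 untreated total RNA libraries, with 132, 119 and 119.

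By its ends, Mir194 was the most regular of the names. Of all its reads 98.9% shared 1 5′ end, position 16 of the Mir194-2 hairpin and the first base of miR-194-5p. The 3′ arm gave 8 reads in all, and the exact miR-194-2-3p was seen 6 times, in Mili KO only. The forms of 20 nt or more often had 1 to 3 further bases that the hairpins do not hold. Such tails were on 34.7% (28.1 to 41.7) of these reads in Mili KO, 34.6% (27.7 to 42.0) in Hen1 KO and 36.4% (29.5 to 43.7) in WT. The most common tailed read is shown with its added base in capitals, and it had 55 reads in Mili KO, 45 in Hen1 KO and 45 in WT.
Mir194 with a T tail, 24 nt: tgtaacagcaactccatgtggaaT

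The other comparisons were not used to choose the names. The 20 to 23 nt forms were 1.69 times (1.32 to 2.16) as large a share in Mili KO as in WT, and 24.1-fold lower (14.5 to 40.1) in the MILI IP than in WT. All other microRNA genes were at 1.77 times in Mili KO and 22.8-fold lower in the MILI IP. In Hen1 KO these forms were 1.60-fold lower (1.24 to 2.06) than in WT, where the other microRNAs were 2.62-fold lower. Mir192, the cluster partner of Mir194-2, had 54 reads in WT NaIO4 and 550 in WT, 14.3-fold lower (10.8 to 18.9), and was 61.2-fold lower (42.6 to 87.8) in the MILI IP than in WT. Mir215 had 10 reads or fewer in these libraries other than Hen1 KO, which had 12, so its ratios are not given.

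The end of the 18-nt form has a feature that the choice of names did not use. In the hairpins it is followed by TGGAA in Mir194-2 and by TGGAC in Mir194-1. Reads of all other annotated microRNA genes were therefore sorted by the 5 hairpin bases after their 3′ end, an analysis chosen after the 18-nt form had been seen. Among 243 such contexts with at least 300 reads in each NaIO4 pair, TGGAA had the highest ratio in both: 2.43 (2.25 to 2.61) in WT, with 3056 reads in WT NaIO4 and 897 in WT, and 12.2 (11.2 to 13.3) in Hen1 KO, with 1907 in Hen1 KO NaIO4 and 704 in Hen1 KO. The median context was at 0.0915 in WT and 0.325 in Hen1 KO. TGGAC was number 25 in WT at 0.933 and number 65 in Hen1 KO at 0.425. Most of the TGGAA reads lay in predicted entries: of 7859 reads over the 6 libraries, 799 matched a gene named Mir.

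The TGGAA value rested on 1 group of sequences. Of the 109 sequences with this context, 32 shared their last 10 bases with the most read one and held 6770 of the 7859 reads. Without these 32, TGGAA was at 0.478 (0.386 to 0.593) in WT, with 139 reads in WT NaIO4 and 207 in WT. In Hen1 KO it was then at 2.88 (2.39 to 3.48), with 179 reads in Hen1 KO NaIO4 and 279 in Hen1 KO. It would then be number 39 in WT and number 7 in Hen1 KO, the other contexts being left whole, so the first place rested on those 32 sequences.

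Among reads of annotated rRNA genes, TGGAA was the third of 84 contexts in both genotypes, at 5.17 in WT and 31.2 in Hen1 KO, against medians of 1.23 and 1.67. There, too, reads with 1 shared end of 10 bases made up 899392 of 959531, and without them the ratios were 0.957 in WT and 5.02 in Hen1 KO. Among other annotated small RNAs TGGAA was number 64 of 484 in WT at 1.10 and number 7 in Hen1 KO at 4.30. There the ratios rose without the reads of the most read end, to 1.40 (1.36 to 1.44) in WT and 5.21 (5.07 to 5.36) in Hen1 KO. TGGAC, low among microRNA genes, was number 3 of this class in WT at 2.18 (1.99 to 2.40). In Hen1 KO it was number 1 at 14.1 (12.5 to 15.8). Whether either context has a part in the 18-nt form was not tested.

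**Figure D4:**
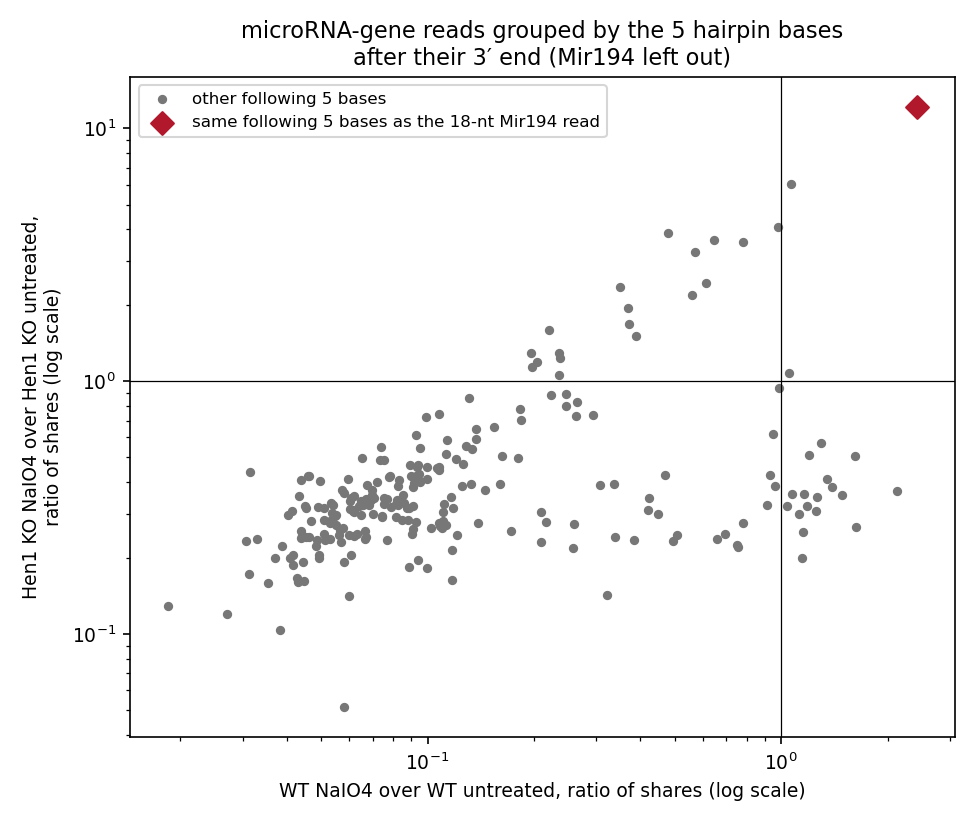
Each point is a group of reads of microRNA genes, without Mir194, that share the 5 hairpin bases following their 3′ end, with WT NaIO4 over WT on the x axis and Hen1 KO NaIO4 over Hen1 KO on the y axis (both ratios of shares, log scales). The context that follows the 18-nt Mir194 form in Mir194-2 (red diamond) lies at the upper right, at 2.43 and 12.2, and without the 32 sequences that share the end of its most read one it would lie at 0.478 and 2.88.

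Mir546 is a stretch of an mRNA. The hairpin is at chr10:126998440-126998560 on the + strand, inside exon 8 of 8 of Ctdsp2 (chr10:126978717-126999975, + strand), a phosphatase of the RNA polymerase II tail. It lies in the 3′ untranslated region (UTR), from 1954 nt after the end of the coding sequence, and all 179 read sequences also match Ctdsp2. Its level was 37.4 RPM in the MILI IP, 0 in Mili KO, 17.7 in Hen1 KO NaIO4, 32.8 in Hen1 KO, 37.2 in WT NaIO4 and 20.2 in WT. Mili KO stood apart with 0 of 4808088 reads, where 3 reads would be 0.624 RPM.

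Against WT, Mir546 was at least 32.4-fold lower in Mili KO (at a floor of 3 reads), and 1.85 times (1.55 to 2.20) as high in the MILI IP. With NaIO4 it was 1.84 times (1.52 to 2.23) as high in WT NaIO4 as in WT, but 1.86-fold lower (1.37 to 2.52) in Hen1 KO NaIO4 than in Hen1 KO. Hen1 KO without treatment was at 1.62 times (1.34 to 1.96) WT. Reads of 25 to 31 nt in no annotated small RNA class, the piRNA-sized reads, had ratios of the same direction. They were 3.23-fold lower in Mili KO and 1.74 times as high in the MILI IP, each against WT. They were 1.55 times as high in WT NaIO4 as in WT and 2.54-fold lower in Hen1 KO NaIO4 than in Hen1 KO. For arms, 32 of 712 were at least 2-fold higher in the MILI IP than in WT (4.49%), and the Mir546 5′ side was number 13 at 2.82, with its 3′ side at 1.38.

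The reads had the size and first base of piRNAs. Of all Mir546 reads, 85.3% were 25 to 31 nt long and 92.2% (90.9 to 93.4) began with T. By library, the share with T was 92.5% in the MILI IP and 91.2% in WT, over all lengths counted. Among piRNA-sized reads in no class, of 25 to 31 nt only, 85.4% began with T in the MILI IP and 72.7% in WT. The Mir546 reads used 51 5′ ends, and no single one held more than 28.7% of them. The 5′ end at position 17 had 353 reads in the MILI IP, 10 in Hen1 KO NaIO4, 96 in Hen1 KO, 52 in WT NaIO4 and 35 in WT. The one at position 51 had 196 in the MILI IP, 14 in Hen1 KO NaIO4, 103 in Hen1 KO, 142 in WT NaIO4 and 49 in WT. Position 51 led position 17 in both WT libraries and both Hen1 KO libraries, and position 17 led in the MILI IP. The annotated mature miR-546 lies at positions 32 to 47 and is 16 nt long, shorter than any sequence in the files, so that exact form could not be read.

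The 3′ ends were compared by read length and by added bases. Reads of 25 to 31 nt had a mean length of 27.5 ± 1.5 nt in the MILI IP, 26.6 ± 1.8 in Hen1 KO NaIO4, 26.5 ± 1.4 in Hen1 KO, 27.2 ± 1.5 in WT NaIO4 and 27.3 ± 1.7 in WT (SD over reads of 1 library, n = 777, 37, 342, 345 and 124 reads). At a fixed 5′ end, reads of all lengths from position 17 averaged 27.4 nt in Hen1 KO (n = 96 reads) and 28.7 in WT (n = 35). Those from position 51 averaged 25.8 nt in Hen1 KO (n = 103) and 27.3 in WT (n = 49), and those from position 92 averaged 24.5 in Hen1 KO (n = 28) and 25.1 in WT (n = 16). From positions 87 and 79, with 8 and 11 reads in WT, Hen1 KO reads were longer, at 27.5 and 24.9 nt against 27.0 and 21.8 nt in WT. With 1 library of each, these differences were not tested. Reads with 1 to 3 added T at the 3′ end made up 3.38% (2.34 to 4.72) in the MILI IP, 8.0% (2.22 to 19.2) in Hen1 KO NaIO4, 12.7% (9.76 to 16.2) in Hen1 KO, 1.79% (0.725 to 3.66) in WT NaIO4 and 6.92% (3.50 to 12) in WT. The intervals of Hen1 KO and WT overlap, while that of Hen1 KO lies above those of WT NaIO4 and the MILI IP.

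The hairpin is one of many covered stretches of the Ctdsp2 mRNA. Reads that match no other gene were counted along its longest transcript, and levels are given per 100 nt. The hairpin had 30.9 RPM per 100 nt in the MILI IP, 14.6 in Hen1 KO NaIO4, 27.1 in Hen1 KO, 30.8 in WT NaIO4 and 16.7 in WT. The other 3362 nt of the 3′ UTR had 26.5 in the MILI IP, 9.03 in Hen1 KO NaIO4, 19.7 in Hen1 KO, 24.3 in WT NaIO4 and 13.5 in WT. The coding sequence had 1.73 in the MILI IP and 0.672 in WT. The 150 nt before the hairpin had 43.1 in the MILI IP, 5.12 in Hen1 KO NaIO4, 21.99 in Hen1 KO, 27.3 in WT NaIO4 and 13.4 in WT. The 150 nt after it had 21.4 in the MILI IP, 1.28 in Hen1 KO NaIO4, 18.0015 in Hen1 KO, 12.2 in WT NaIO4 and 6.37 in WT. The hairpin thus lay above both flanks and above the rest of the 3′ UTR in the 4 total RNA libraries with reads, and below the stretch before it in the MILI IP.

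The ratios of the rest of the 3′ UTR, taken whole, were near those of the hairpin, while those of its flanks were not in every comparison. The rest was at 1.81 times (1.73 to 1.88) in WT NaIO4 over WT and 2.18-fold lower (2.03 to 2.35) in Hen1 KO NaIO4 than in Hen1 KO. In the MILI IP it was at 1.97 times (1.90 to 2.04) WT. In Mili KO it had 1 read, against 3314 in WT. In Hen1 KO NaIO4 the 150 nt before the hairpin were 4.30-fold lower (2.74 to 6.73) than in Hen1 KO and the 150 nt after it 14.1-fold lower (5.81 to 34.0), with 20 and 5 reads in Hen1 KO NaIO4, against 1.86-fold lower for the hairpin. In the MILI IP the flanks were at 3.22 (2.72 to 3.81) and 3.35 (2.63 to 4.28) times WT, against 1.85 for the hairpin. In WT NaIO4 they were at 2.04 and 1.91 times WT, near the 1.84 of the hairpin. Reads that depart from the hairpin were mostly A95G (position 95 from the 5′ end of the hairpin, hairpin base first), with 352 such reads beside 524 exact reads over that position.

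Mir6236 is annotated at chr9:110281287-110281409 (+ strand, 123 nt). Its level was 27.6 RPM in the MILI IP, 96.5 in Mili KO, 122 in Hen1 KO NaIO4, 22.9 in Hen1 KO, 42.7 in WT NaIO4 and 43.7 in WT. It was highest in Hen1 KO NaIO4 and Mili KO, and the 2 WT libraries overlap within counting error, at a ratio of 0.977 (0.846 to 1.13). In Hen1 KO NaIO4 it was 5.35 times (4.55 to 6.29) as high as in Hen1 KO. Per microRNA read, a total that was itself lower with NaIO4, it was 12.9-fold higher in WT NaIO4 than in WT and 15.5-fold higher in Hen1 KO NaIO4 than in Hen1 KO.

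In the comparisons that the choice did not use, Mir6236 was 2.21 times (1.92 to 2.55) as high in Mili KO as in WT and 1.58-fold lower (1.39 to 1.81) in the MILI IP than in WT. Of 623 arms, 115 were at least 2-fold higher in Mili KO (18.5%), with a median of 1.56, so Mir6236 at number 83 is one of many. Reads of annotated rRNA genes were at 2.38 times in Mili KO and 2.25-fold lower in the MILI IP, each against WT. They were at 15.9 times in Hen1 KO NaIO4 over Hen1 KO, but at 3.54 times in WT NaIO4 over WT.

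The reads did not have the form of a microRNA. They covered positions 1 to 52 only, 42.3% of the hairpin, and none crossed position 52. The annotated mature miR-6236, at positions 67 to 85, had 0 reads in all 6 libraries, which allows up to 0.119 RPM in the MILI IP and 0.410 RPM in WT at 3 reads. There were 35 5′ ends, of which the most used held 12.1% of the reads. For other microRNA arms in WT the most used 5′ end held a median of 78.6% (512 arms with at least 200 reads). Lengths were spread, with 43.3% of reads at 20 to 24 nt and 35.95% at 25 to 31 nt, and 21.3% began with T over the 6 libraries. In the MILI IP 46.6% were 25 to 31 nt long and 29.7% (26.4 to 33.3) began with T, against 34.7% and 20.9% (16.6 to 25.8) in WT. In Mili KO these shares were 25.9% and 16.2% (12.9 to 19.8), so the MILI IP was the highest in both. Its share with T is over all lengths counted, while the 85.4% of piRNA-sized reads in no class is over 25 to 31 nt only. The share with T among the Mir6236 reads of 25 to 31 nt was not computed.

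A second set of reads shared at least 18 nt with the hairpin and then departed from it. For Mir6236 these numbered 3706, and 1796 of them left the hairpin at G53C (the hairpin has the first base, the read the last, counted from the hairpin's 5′ end). Another 1653 ran past the hairpin's start. No exact read crossed position 53, where a read with another base cannot count as exact. Only 54 exact reads reached position 52, and the most used 3′ end was position 50, with 431 of 2506 reads. Departing reads were 1.75 times (1.55 to 1.96) as high in the MILI IP as in WT, against 1.58-fold lower for exact reads, and 1.92 times (1.62 to 2.28) as high in Hen1 KO NaIO4 as in Hen1 KO. In WT NaIO4 over WT they were at 0.926 (0.803 to 1.07). In Mili KO over WT they were at 1.44 (1.23 to 1.68), against 2.21 for exact reads, so they too were higher in Mili KO. The longer RNA that these reads follow was not identified.

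**Figure D5:**
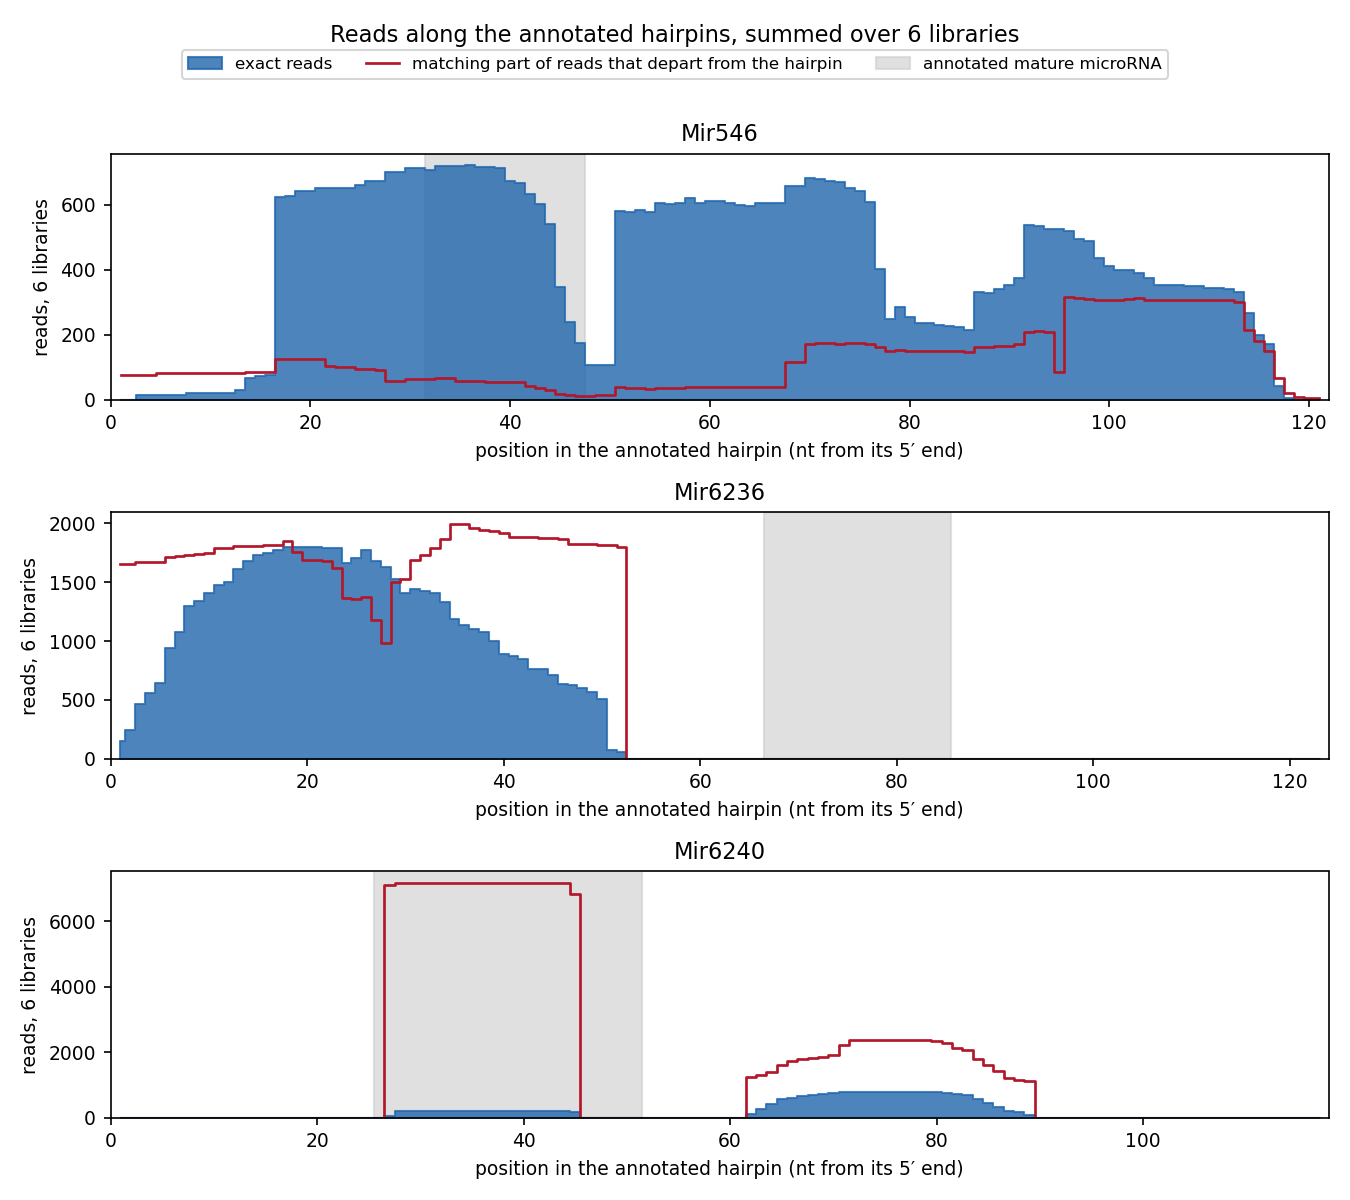
Reads over each position of the annotated hairpins of Mir546, Mir6236 and Mir6240 (x axis, nt from the 5′ end), summed over the 6 libraries (y axis, number of reads, different scales). Blue are exact reads, the red line is the matching part of departing reads and grey is the annotated mature microRNA. Mir6236 has no exact reads beyond position 52, and Mir6240 has 2 separate windows in which departing reads outnumber exact ones.

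Mir6240 is annotated at chr5:114851948-114852064 (+ strand, 117 nt). Its level was 8.56 RPM in the MILI IP, 35.6 in Mili KO, 35.7 in Hen1 KO NaIO4, 14.4 in Hen1 KO, 14.2 in WT NaIO4 and 25.5 in WT. It was lowest in the MILI IP, and Mili KO and Hen1 KO NaIO4 could not be told apart by counting error. With NaIO4 it was 1.80-fold lower (1.45 to 2.23) in WT NaIO4 than in WT, but 2.47 times (1.92 to 3.18) as high in Hen1 KO NaIO4 as in Hen1 KO. Per microRNA read it was 7.32-fold higher in WT NaIO4 and 7.15-fold higher in Hen1 KO NaIO4. Against WT it was at 1.39 times (1.13 to 1.71) in Mili KO and 2.98-fold lower (2.45 to 3.63) in the MILI IP, where 432 of 712 arms were at least 2-fold lower (60.7%).

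Its reads fell into 2 windows with different behaviour. Positions 27 to 47 had 6 reads in the MILI IP, 77 in Mili KO, 4 in Hen1 KO NaIO4, 48 in Hen1 KO, 3 in WT NaIO4 and 59 in WT. This window was 27.6-fold lower (8.66 to 88.1) in WT NaIO4 than in WT and 33.9-fold lower (14.6 to 78.5) in the MILI IP than in WT, near the other microRNA genes at 13.2-fold and 22.8-fold lower. In Hen1 KO NaIO4 over Hen1 KO it was at 0.374 (0.135 to 1.04), where the other microRNA genes were at 0.346. These ratios hold for exact reads only. Position 28 had 197 exact reads and 7152 departing reads, most of which left the hairpin at C26A, with counts given below. Positions 62 to 89 had 210 reads in the MILI IP, 94 in Mili KO, 89 in Hen1 KO NaIO4, 121 in Hen1 KO, 143 in WT NaIO4 and 128 in WT. That window was kept with NaIO4, at 0.796 (0.627 to 1.01) in WT NaIO4 over WT and 3.31 (2.51 to 4.35) in Hen1 KO NaIO4 over Hen1 KO. The annotated mature miR-6240, at positions 26 to 51, overlaps the first window but had 0 reads over its whole length in all 6 libraries.

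Most reads that resemble Mir6240 do not match it exactly. Departing reads numbered 9529, which is 9.70 for each of the 982 exact reads, while Mir6236 had 1.48. They left the hairpin at its windows' borders: 7030 at C26A, 1195 at T61G and 1109 at G90T. No exact read crossed these places, where a read with another base cannot count as exact. Most exact reads stopped short of them: in the first window 68 of 197 began at position 27. In the second window 123 of 785 began at position 62 and 97 ended at position 89. Of the exact reads, 44.1% were only 18 to 19 nt long. Departing reads were 1.98 times (1.84 to 2.14) as high in the MILI IP as in WT, while exact reads were 2.98-fold lower. In Mili KO over WT departing reads were at 1.26 (1.13 to 1.40) and exact reads at 1.39. With NaIO4, departing reads were 1.27-fold lower (1.13 to 1.44) in Hen1 KO NaIO4 than in Hen1 KO, where exact reads were 2.47 times as high, and 1.27-fold lower (1.15 to 1.40) in WT NaIO4 than in WT. These pooled ratios mix borders that differ. C26A had 4628 reads in the MILI IP, 296 in Mili KO, 96 in Hen1 KO NaIO4, 1280 in Hen1 KO, 392 in WT NaIO4 and 338 in WT. T61G had 236, 174, 103, 236, 238 and 208 in that order, and G90T had 302, 133, 91, 209, 193 and 181. Per library read, each of these borders was higher in Mili KO than in WT. On the same scale C26A was higher in the MILI IP than in WT and lower in Hen1 KO NaIO4 than in Hen1 KO. T61G and G90T went the other way in both, as did the exact reads of positions 62 to 89, the window they border.

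Whether the Mir6236 and Mir6240 reads come from rRNA could be checked only in part. None of their 271 and 67 sequences matched another transcript of the reference, whose 357 genes that hold rRNA do not include a whole 45S precursor. Over the same reference, 4 microRNA genes shared reads with rRNA transcripts (Gm47301, Gm47285, Gm47276 and Gm47281), and none of them is named Mir. Among 582 microRNA genes with at least 200 reads, the 3 closest to Mir6236 over the 6 libraries were Gm47276 and Gm47281 (Pearson's r = 0.94 each on log2(RPM + 1)) and Gm47301 (0.92), all of that group. The closest to Mir6240 were Gm23415 (0.98), Gm49347 and Mir690 (0.93 each). The closest to Mir546 were Gm26475, Gm23551 and Gm24098, at 0.99 to 1.00, each with 0.416 RPM in Mili KO, and the closest to Mir194 were Gm24187 (0.94), Gm25303 (0.90) and Mir5099 (0.89). Gm47276 and Gm47281 had the same level in every library, so they are not separate matches. These are descriptions over the 6 libraries, with no p-value, since the genes share these libraries and their depths. The NaIO4 pairs among the libraries also chose the names, so likeness to other entries kept with NaIO4 is partly built in.

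The predicted folds differed too. By RNAfold the energy per nt was -0.51 and -0.55 kcal/mol for Mir194-1 and Mir194-2, -0.39 for Mir546, -0.37 for Mir6236 and -0.21 for Mir6240, beside a median of -0.37 over the 2202 hairpins. Of these, 96.5% had a lower energy per nt than Mir6240.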

How the data were processed

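Each deposited file lists distinct sequences with their read counts, collapsed by the authors before deposit, and has no header. The values are whole numbers with different totals, so they are raw counts. Per the submitters' processing notes, Bowtie (no version) and build mm10 were used, while the sources used here name no adapter trimming or length filter. Sequences of 18 to 35 nt were matched in the sense and exactly to GENCODE M21 transcripts (GRCm38), and each sequence counted once per name. Reads matching several genes counted for each.

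Each group was 1 library, so ratios of shares were computed with intervals from the counts and no test was made. The 4 names and all lists were chosen with earlier results of these data known. The text names all 4 entries, the 5 most read sequences of Mir546 and only some of the 5 most read of the other names, comparison microRNAs, the 3 most alike genes and the 3 arms on each side of the 2-fold limit. Departing reads share their first or last 18 nt with a hairpin. Tails are up to 3 bases beyond it.

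Alternatives were scaling per microRNA read (all annotated microRNA genes without the 4 names and Mir5099), leaving out the 10 most abundant sequences of a library, 20 to 24 nt only, unique matches, tails, distinct sequences and a minimum of 1000 reads. Python 3.11.15, numpy 2.4.6, scipy 1.17.1, matplotlib 3.10.9 and RNAfold 2.7.2 were used. Matching and ratios were tested on simulated data. Depth limits the small values: Mir546 at 20.2 RPM in WT rests on 148 reads.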

Additional observations from a re-analysis of the deposited data

Results flagged for a closer look

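Reads of 17 nt and of 36 nt or more lie outside the lengths counted for the 4 names, and some of them were more frequent in 1 library than in its untreated or WT reference, with an interval of the ratio above 1. Reads of 17 nt of Mir6236 stood at 7.49 RPM in Mili KO (36 reads) and 1.91 in WT (14 reads), a ratio of 3.92 (2.11 to 7.26). They were at 3.53 RPM in the MILI IP (89 reads), 1.84 times (1.05 to 3.24) the WT level, and at 4.99 RPM in Hen1 KO NaIO4 (13 reads) and 1.37 in Hen1 KO (16 reads), a ratio of 3.65 (1.76 to 7.59). Mir6236 reads of 36 nt or more stood at 9.98 RPM in Hen1 KO NaIO4 (26 reads) and 1.54 in Hen1 KO (18 reads), a ratio of 6.49 (3.56 to 11.8). Mir6240 reads of 17 nt stood at 5.20 RPM in Mili KO (25 reads) and 2.46 in WT (18 reads), a ratio of 2.12 (1.15 to 3.88). Mir546 reads of 17 nt stood at 1.15 RPM in Hen1 KO NaIO4 (3 reads) and 0.171 in Hen1 KO (2 reads), a ratio of 6.74 (1.13 to 40.3).

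For 3 names the NaIO4 ratio lay on opposite sides of 1 in the Hen1 KO and the WT pair of libraries, a difference that was not tested. Mir546 was at 0.538 in the Hen1 KO pair and 1.84 in the WT pair. Mir6236 was at 5.35 in the Hen1 KO pair and 0.977 in the WT pair, where the interval spans 1. Mir6240 was at 2.47 in the Hen1 KO pair and 0.556 in the WT pair. Scaled per microRNA read, none of the 3 had opposite directions: Mir546 was at 1.56 and 24.2, Mir6236 at 15.5 and 12.9 and Mir6240 at 7.15 and 7.32, in the Hen1 KO pair first.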

How the results depend on the processing

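Of the values recomputed under an alternative, 33 stayed close to the reported value (a ratio within its 95% interval), 29 kept the direction but moved further, and 17 changed direction. The alternatives scale, filter or count the reads otherwise, and beyond that construction the cause was not tested. No paired analysis was possible because each group is 1 library. Depth limits every value resting on under 20 reads.

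Scaled per microRNA read, the ratios of WT NaIO4 over WT were 42.0 for Mir194, 24.2 for Mir546, 12.9 for Mir6236 and 7.32 for Mir6240. Those of Hen1 KO NaIO4 over Hen1 KO were 41.9, 1.56, 15.5 and 7.15 in that order of names. Hen1 KO over WT gave 1.67, 4.25, 1.37 and 1.48. Mili KO over WT gave 0.920 for Mir194, 1.25 for Mir6236 and 0.786 for Mir6240. MILI IP over WT gave 0.991, 42.2, 14.4 and 7.65 for the 4 names. Arms at least 2-fold higher with NaIO4 then numbered 386 in the WT pair and 172 in the Hen1 KO pair, against 6 and 88 per library read. With a minimum of 1000 reads they numbered 0 and 58, from a fold limit without a test.

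Without the 10 most abundant sequences, Hen1 KO NaIO4 over Hen1 KO was 21.9 for Mir194, 0.814 for Mir546, 8.08 for Mir6236 and 3.74 for Mir6240, and Mili KO over WT was 2.59 for Mir6236. With 20 to 24 nt only, WT NaIO4 over WT was 0.0658 for Mir194 and 0.922 for Mir546, and Hen1 KO NaIO4 over Hen1 KO was 0.113 for Mir194, 0.828 for Mir546 and 4.49 for Mir6236. With up to 3 further bases at the 3′ end, Mir194 was at 2.10 in the WT pair and 9.80 in the Hen1 KO pair. With distinct sequences counted once, WT NaIO4 over WT was 0.713 for Mir194, 1.07 for Mir546 and 0.713 for Mir6236. Hen1 KO NaIO4 over Hen1 KO was then 4.16, 1.43, 7.74 and 5.91 for the 4 names.

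Without reads of 18 to 19 nt, an alternative chosen after seeing the data, Mir194 was at 0.0658 in WT NaIO4 over WT and 0.113 in Hen1 KO NaIO4 over Hen1 KO, since its 18-nt form is left out. In another alternative chosen after seeing the data, the context of that form in other microRNA genes was at 0.478 in WT NaIO4 over WT and 2.88 in Hen1 KO NaIO4 over Hen1 KO without the sequences that end like its most read one. Unique matches leave no Mir546 reads, as all of them also match Ctdsp2. Mir546 has no ratio in Mili KO, which has 0 reads.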

Other observations

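Antisense to the hairpins, Mir194 had 4 reads in the MILI IP and Mir6240 had 1 read in Hen1 KO NaIO4.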
